A study of Homo sapiens with 8 samples.

Results

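Cathepsins are the main proteases of the lysosome, and legumain, encoded by LGMN, is the lysosomal protease that cuts after asparagine and processes several cathepsins. The genes described here are CTSA, CTSB, CTSC, CTSD, CTSH, CTSL, CTSO, CTSS, CTSZ and LGMN, taken by their symbol as members of these protease families, with no threshold on a measured value. Of the 10 genes, 8 had a row among the 17912 genes of the tables, and CTSL and LGMN were not analysed here. The cells were NKM-1, an established human myeloid leukemia line, labelled wildtype and grown in RPMI medium with penicillin and streptomycin. Cultures received 30 uM SF153 or the solvent DMSO for 48 h, and the series title calls the compound an inhibitor of UHM splicing factors, which are splicing proteins with a U2AF homology motif. Total RNA without ribosomal RNA was sequenced in 4 DMSO and 4 SF153 libraries, 2 of each in batch 1 and 2 of each in batch 2. Libraries are written as batch and library number, so DMSO 1.2 is the second DMSO library of batch 1, and values are listed in the order 1.1, 1.2, 2.1, 2.2. The labels do not say that 1.1 and 1.2 came from separate cultures, so the p-values reflect the spread among libraries alone, and that spread may be technical.

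Most cathepsins are made as inactive precursors, carried from the Golgi to the lysosome by mannose 6-phosphate receptors or sortilin, and activated in the acidic lumen by cleavage. They fall into 3 catalytic types here. CTSD encodes an aspartic endopeptidase, CTSA a serine carboxypeptidase that also stabilizes the sialidase NEU1, and CTSB, CTSC, CTSH, CTSO, CTSS and CTSZ encode cysteine proteases of the papain family. In myeloid cells they digest endocytosed protein, trim the invariant chain of MHC class II molecules, process endosomal Toll-like receptors and activate the serine proteases of granules. Cystatins and some serpins inhibit the papain-family enzymes and do not act on aspartic proteases such as CTSD. The transcription factors TFEB and TFE3 bind E-box elements with the core CACGTG in the promoters of many lysosomal genes.

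The last 100 bases before a single transcription start per gene, from RefSeq on GRCh38.p14, are shown for 5 members. Members that differ in their response to SF153 can thus be read side by side. Any other starts of these genes were not searched. CTSB, CTSS and CTSO, which are among the members called lower below, are not shown, so the comparison leaves them out. Capitals mark each CACGTG, and each line runs 5′ to 3′ towards the start.
CTSD, chr11:1763928-1764027, minus strand: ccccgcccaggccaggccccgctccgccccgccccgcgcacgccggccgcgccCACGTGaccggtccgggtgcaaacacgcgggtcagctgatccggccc
CTSA, chr20:45891235-45891334, plus strand: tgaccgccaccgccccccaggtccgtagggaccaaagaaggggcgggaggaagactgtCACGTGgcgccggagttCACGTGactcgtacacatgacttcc
CTSC, chr11:88337737-88337836, minus strand: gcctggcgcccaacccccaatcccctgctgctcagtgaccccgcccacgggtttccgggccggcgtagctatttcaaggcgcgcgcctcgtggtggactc
CTSZ, chr20:59007255-59007354, minus strand: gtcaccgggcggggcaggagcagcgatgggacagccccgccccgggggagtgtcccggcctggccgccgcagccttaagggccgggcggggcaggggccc
CTSH, chr15:78945047-78945146, minus strand: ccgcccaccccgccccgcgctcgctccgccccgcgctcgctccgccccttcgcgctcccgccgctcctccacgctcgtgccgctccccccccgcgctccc
CTSA held 2 copies of CACGTG, with first bases at -42 and -25 from the start, and the copy at -25 sat inside TCACGTGA, the palindrome with the flanking bases preferred by TFEB. CTSD held 1 copy, at -47. CTSC, CTSH and CTSZ held none, neither in these 100 bases nor in the whole 300-base window from 250 before to 50 after the start. Among 34943 promoters of the same length, 3.41% held CACGTG in the last 100 bases, 0.203% held it at least 2 times, and 0.581% held TCACGTGA. Both strings read the same on either strand, and TCACGTGA contains CACGTG. The GC box GGGCGG, searched like TATAAA on both strands, lay somewhere in the 300 bases of all 5 promoters, which 44.9% of all promoters share, and none of the 5 held TATAAA, found in 11.6% of all. These are matches of letters, and no binding was measured here.

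The deposited signal is named both CPM and TPM and was treated here as a length-adjusted abundance of the TPM type. Setting levels of different genes beside each other rests on that reading, and the read depth behind the signal is unknown. Per library it summed to between 828381 and 1027119, lowest in the SF153 libraries of batch 2. In both of those, 16.8% of the signal came from mitochondrially encoded genes, against 9.17% to 9.92% in the other 6. The small RNA RN7SK made up 18.7% and 18.2% in SF153 1.1 and 1.2, against 11.4% to 13.9% elsewhere. Unless a scaling is named, signals below are relative amounts as deposited, not divided by these sums. The lower sums of both SF153 libraries of batch 2 thus remain in them. Of 13 myeloid markers, 11 passed the filter on low signal, of which CD33 and ITGAM were called higher and MPO, CEBPA, CSF1R, LYZ, FCER1G and TYROBP lower. Of all genes tested, 13.0% were called higher and 24.3% lower. With mitochondrial and small RNA genes removed, 4 of the 11 were called higher and 5 lower, against 35.0% and 13.8% of all genes. CSF1R was then not called. As deposited, the summed signal of the myeloid list ran from 1482 to 1667 in DMSO and from 991 to 1278 in SF153. Of 11 lymphoid markers, 3 passed, and the summed signal of the list ran from 77.5 to 88.3 in DMSO and from 21.9 to 53.4 in SF153, most of it from CD79A and CD79B. No erythroid or megakaryocytic marker had a value, and PDGFRB was the single epithelial or stromal marker with one. Since RNA was taken from bulk cells, fewer cells of a kind and less RNA per cell cannot be told apart.

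Lysosomal proteases were well represented in untreated NKM-1 cells. In DMSO, CTSD had the highest level with a signal of 164 ± 5.74 (SD, n = 4), followed by CTSC at 148 ± 11.1, CTSS at 124 ± 26.0 and CTSB at 108 ± 8.47. The ranges of CTSD and CTSC, of CTSC and CTSS, and of CTSS and CTSB overlapped, so these neighbours are not separated by the libraries. CTSD lay clear of CTSS and CTSB, and CTSC clear of CTSB. CTSZ at 93.1 ± 3.58, CTSA at 53.2 ± 5.90, CTSH at 16.3 ± 2.77 and CTSO at 3.35 ± 0.606 followed in this order, with no overlap between neighbours from CTSB onwards. CTSD stood 478th of all 17912 genes by mean DMSO signal. After SF153 the order was CTSD, CTSC, CTSB, CTSS, CTSZ, CTSA, CTSH, CTSO. CTSD then stood 189th of all genes and apart from CTSC in every library, CTSC to CTSA overlapped from neighbour to neighbour, and CTSH and CTSO remained separate at the bottom.

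**Figure D1:**
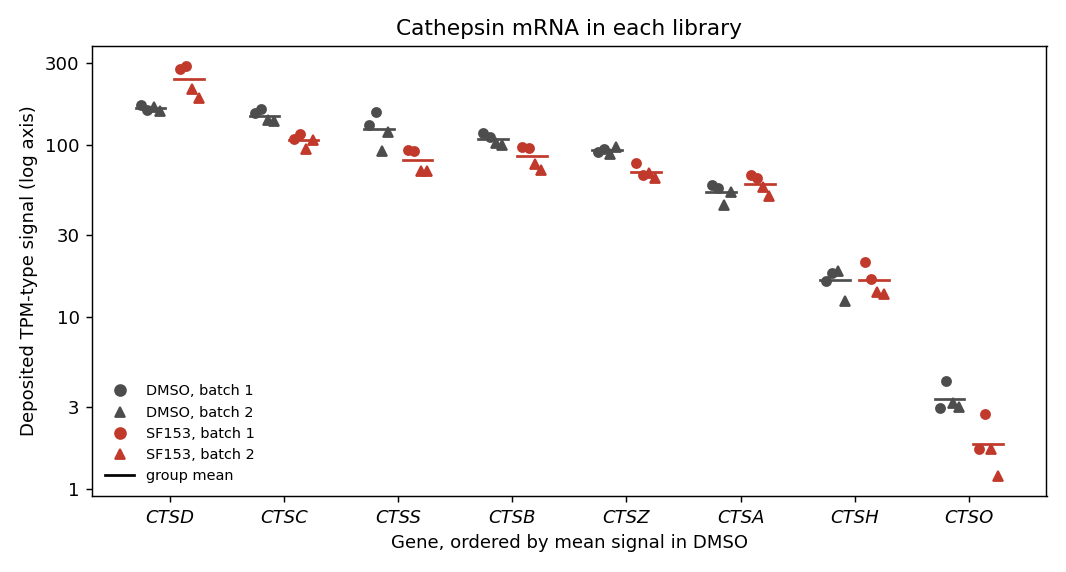
Signal (TPM-type, log axis) of the 8 measured members in each library, with grey points for DMSO, red points for SF153, circles for batch 1, triangles for batch 2 and lines at the group means. CTSD lies higher in all 4 SF153 libraries, CTSB, CTSC, CTSO and CTSZ lie lower in all 4, and the groups overlap for CTSA, CTSH and CTSS.

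As deposited, the members differed in opposite directions between SF153 and DMSO. In the limma fit over 15542 genes, on log2(signal + 1) and at a Benjamini-Hochberg adjusted p below 0.05, CTSD was called higher and CTSB, CTSC, CTSO, CTSS and CTSZ were called lower, while CTSA and CTSH were not called. That is 1 of 8 members higher, where 13.0% of all genes tested were called higher, and 5 of 8 lower, where 24.3% of all were. The groups did not overlap for 1 member that was higher and for 4 that were lower, against 13.2% and 23.6% of all genes. The median log2 difference, SF153 minus DMSO, was -0.37 over the 8 members and -0.03 over all genes. All 5 of the lower members encode papain-family cysteine proteases. So does CTSH, which was not called, and only CTSA and CTSD of the 8 do not. The number of members called lower was 2 without SF153 2.1, and 3 without DMSO 1.1, DMSO 1.2, DMSO 2.1 or SF153 2.2. With libraries averaged by treatment and batch, CTSC (adjusted p = 0.0421) and CTSZ (adjusted p = 0.0397) were the only members called. No member was called lower once mitochondrial and small RNA genes were removed, as described below.

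CTSD, on chr11:1752752-1764573 (minus strand, GENCODE 29 on GRCh38), encodes the aspartic protease that carries out much of the bulk protein breakdown in lysosomes. Its signal was 171, 160.3, 166 and 158 in DMSO and 278, 286, 210.4 and 188 in SF153. Every SF153 library lay above every DMSO library, and the SF153 libraries of batch 1 lay well above those of batch 2. The mean went from 164 ± 5.74 to 240.5 ± 49.0, a ratio of 1.47, and the log2 difference was 0.53 ± 0.13 (SE, adjusted p = 0.0107). With the libraries of a treatment and batch averaged, 2 against 2, the adjusted p was 0.0909, and CTSD was not called. The batches differed in size. The log2 difference was 0.77 in batch 1 (adjusted p = 0.00242) and 0.29 in batch 2 (adjusted p = 0.0609). The interaction term, the batch 2 effect minus the batch 1 effect, was -0.47 ± 0.10 with an unadjusted p of 0.00207 and an adjusted p of 0.120, and 1.15% of all genes tested had an interaction called at an adjusted p below 0.05. None of the 8 members was among those, and CTSD was the only member with an unadjusted interaction p below 0.05. The SF153 libraries of batch 2 also stood apart in their mitochondrial share and in their summed signal, as given above, and the part of these in the smaller difference was not tested.

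CTSA, on chr20:45890144-45898820 (plus strand), encodes protective protein, which removes carboxy-terminal residues and holds NEU1 and the beta-galactosidase GLB1 in a lysosomal complex. Its signal was 58.4, 56.1, 44.9 and 53.4 in DMSO and 66.7, 63.9, 57.0 and 50.7 in SF153. The groups overlapped, since SF153 2.2 lay below 3 DMSO libraries. The log2 difference was 0.16 ± 0.11 (adjusted p = 0.292), with 0.19 in batch 1 and 0.13 in batch 2.

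CTSC, on chr11:88293592-88337787 (minus strand), encodes dipeptidyl peptidase I, which activates the serine proteases of neutrophil granules. Its signal was 152, 162, 140.2 and 139 in DMSO and 108, 116.5, 94.3 and 107 in SF153. All 4 SF153 libraries were lower than all DMSO libraries. The mean fell from 148 ± 11.1 to 107 ± 9.19, with a log2 difference of -0.47 ± 0.08 (adjusted p = 0.00191). This was also the most even change, at -0.48 in batch 1 (adjusted p = 0.0146) and -0.47 in batch 2 (adjusted p = 0.0214).

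CTSZ, on chr20:58995185-59007247 (minus strand), encodes cathepsin X, a carboxypeptidase of the papain family. It had a signal of 91.3, 94.9, 89.2 and 97.1 in DMSO and of 78.5, 67.3, 68.8 and 64.7 in SF153. The groups were again separate. The log2 difference was -0.41 ± 0.08 (adjusted p = 0.00228), with -0.35 in batch 1 (adjusted p = 0.0700) and -0.47 in batch 2 (adjusted p = 0.0199).

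CTSS, on chr1:150730196-150765957 (minus strand), encodes the endopeptidase that makes the last cuts in the invariant chain in antigen-presenting cells. Its signal was 132, 155, 92.2 and 119 in DMSO and 93.7, 92.1, 70.6 and 70.8 in SF153. DMSO 2.1 lay below SF153 1.1, so the groups overlapped by that pair, whereas within each batch they did not. The log2 difference was -0.59 ± 0.16 (adjusted p = 0.0175), with -0.61 in batch 1 (adjusted p = 0.0159) and -0.56 in batch 2 (adjusted p = 0.0459). Without SF153 2.1 the adjusted p was 0.0502.

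CTSB, on chr8:11842524-11869448 (minus strand), encodes an endopeptidase that can also remove dipeptides from the carboxy terminus. Its signal was 118, 111.97, 102 and 99.6 in DMSO and 97.4, 96.5, 77.5 and 72.1 in SF153. The gap between the groups was small, from 97.4 in SF153 1.1 to 99.6 in DMSO 2.2. The log2 difference was -0.34 ± 0.11 (adjusted p = 0.0396), with -0.24 in batch 1 (adjusted p = 0.0678) and -0.43 in batch 2 (adjusted p = 0.0194). The call did not hold when DMSO 1.1, DMSO 1.2, DMSO 2.1, SF153 2.1 or SF153 2.2 was left out, with adjusted p between 0.0567 and 0.103.

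CTSO, on chr4:155924118-155953917 (minus strand), encodes a papain-family protease of broad tissue range and had by far the lowest level of the 8. Its signal was 2.98, 4.25, 3.18 and 2.996 in DMSO and 1.71, 2.74, 1.71 and 1.20 in SF153. The groups were separate, and DMSO 1.2 and SF153 1.2 were each the highest of their group. The log2 difference was -0.63 ± 0.20 (adjusted p = 0.0341), with -0.52 in batch 1 (adjusted p = 0.269) and -0.74 in batch 2 (adjusted p = 0.0988). Leaving out any library except SF153 1.2 raised the adjusted p above the threshold, to between 0.0518 and 0.0941.

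CTSH, on chr15:78921058-78949574 (minus strand), encodes an aminopeptidase of the papain family. Its signal was 16.3, 18.0, 18.6 and 12.5 in DMSO and 21.0, 16.7, 14.0 and 13.6 in SF153. The groups overlapped almost fully, and the log2 difference of -0.00 ± 0.16 (adjusted p = 0.984) took opposite signs in batch 1 (0.13) and batch 2 (-0.13).

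Ratios between members within a library do not change when all genes of a library are scaled by a common factor. They can change under quantile normalization or removal of a trend with length and signal, both used below, which move genes by different amounts. As deposited, the ratios showed a shift of the pool towards CTSD. The summed signal of the 8 members was 710.3 ± 49.8 in DMSO and 662 ± 94.6 in SF153, and the groups overlapped. As deposited, the papain-family sum went from 493 ± 44.6 to 362 ± 39.5 without overlap, and it was not computed for other totals. CTSD was 0.333, 0.294, 0.372 and 0.336 of the papain-family sum in DMSO and 0.694, 0.730, 0.644 and 0.569 in SF153. Every SF153 library lay far above every DMSO library in this ratio. CTSD made up 23.1% ± 1.74 of the members' signal in DMSO and 36.1% ± 2.41 in SF153, and CTSA 7.48% ± 0.487 and 9.03% ± 0.412. CTSC went from 20.9% ± 0.505 to 16.2% ± 1.85, CTSS from 17.4% ± 2.56 to 12.3% ± 0.310, CTSB from 15.2% ± 0.637 to 13.0% ± 0.172 and CTSZ from 13.2% ± 0.933 to 10.6% ± 1.14. CTSO went from 0.471% ± 0.0668 to 0.274% ± 0.0710. The groups were separate for each of these 7 shares, and they overlapped for CTSH, at 2.31% ± 0.417 and 2.46% ± 0.248. Shares of 1 pool are tied to each other, so these values describe the pool and were not tested.

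**Figure D2:**
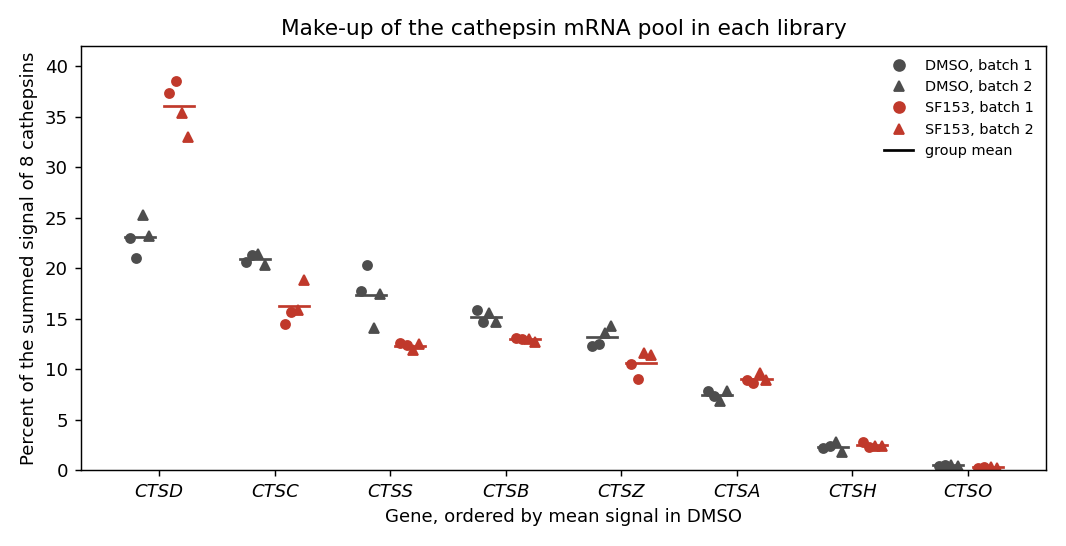
Percent of the summed signal of the 8 measured members that each member took in each library, with grey for DMSO, red for SF153, circles for batch 1, triangles for batch 2 and lines at the group means. CTSD takes 23.1% in DMSO and 36.1% in SF153 on average, and CTSC, CTSS, CTSB and CTSZ each take less in every SF153 library than in any DMSO library.

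CTSD was also higher against single members. Its signal relative to CTSB went from 1.52 ± 0.0959 to 2.78 ± 0.159, relative to CTSC from 1.11 ± 0.0839 to 2.25 ± 0.363, relative to CTSS from 1.36 ± 0.318 to 2.93 ± 0.196 and relative to CTSZ from 1.76 ± 0.123 to 3.44 ± 0.607, without overlap in any of these. Relative to CTSA it went from 3.11 ± 0.394 to 4.01 ± 0.384, and the groups met at 3.69 in the first batch 2 library of each. These ratios, like the shares, are descriptions and shared libraries tie them to each other.

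The sizes of these differences depended on the scaling between libraries, and so did the lower calls, while CTSD was called higher under all 5 scalings tried. When 15 mitochondrially encoded and 318 small RNA genes were removed and the remaining signal rescaled, the median of all genes moved up by 0.30 on the log2 scale. In that fit 35.0% of all genes were called higher and 13.8% lower, and of the 8 members CTSA and CTSD were called higher and none lower, also at an unadjusted p below 0.05. CTSD then had a log2 difference of 0.87 (adjusted p = 0.000246) and CTSA of 0.50 (adjusted p = 0.00205). CTSC was at -0.13 (adjusted p = 0.164), CTSS at -0.25 (adjusted p = 0.167), CTSO at -0.39 (adjusted p = 0.127), CTSZ at -0.07 (adjusted p = 0.432) and CTSB at 0.00 (adjusted p = 0.977). Relative to the median of all genes, which that rescaling shifts, the members differed less between the 2 fits. CTSD lay 0.56 above it as deposited and 0.61 above it in the rescaled fit, and CTSA 0.19 and 0.24 above. CTSC lay at -0.44 and -0.40, CTSS at -0.55 and -0.51, CTSO at -0.60 and -0.66, CTSZ at -0.38 and -0.34, and CTSB at -0.30 and -0.26. The other 3 scalings gave further values. CTSC and CTSO were called lower under median-of-ratios scaling, quantile normalization and removal of the trend with length and signal, CTSZ under the first 2 of these and CTSS under the first, while CTSB was called under none. The log2 difference of CTSD was 0.60, 0.985 and 0.92 in these fits, so its size varied with the scaling as well. Against the median of all genes, CTSD lay 0.92 above it under quantile normalization and 0.86 above it with the trend removed. With the trend removed CTSZ lay at only -0.09 and CTSB at -0.15 from that median.

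**Figure D3:**
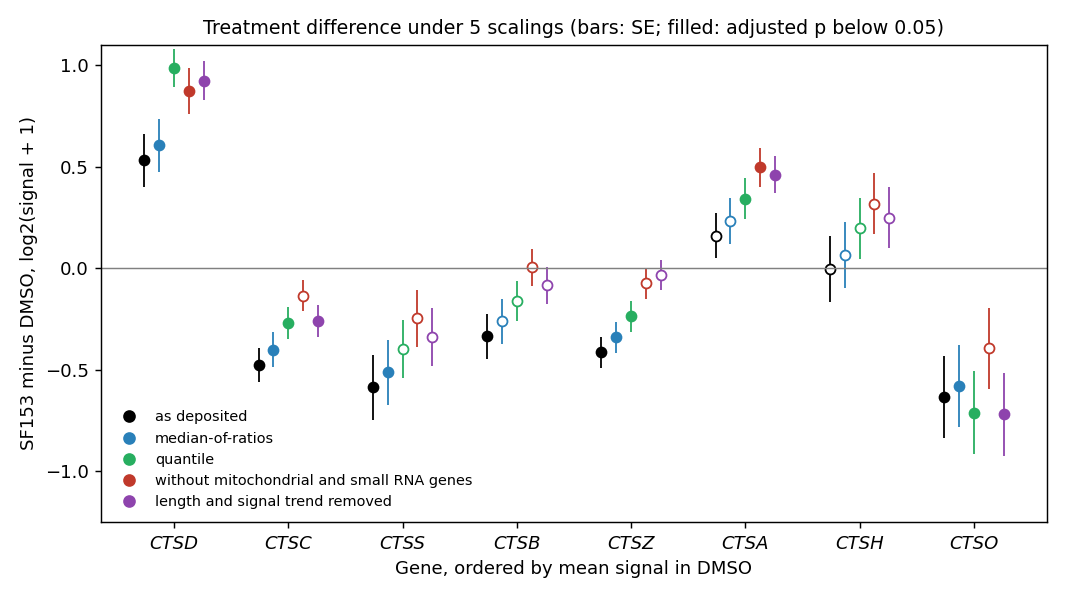
Log2 difference (SF153 minus DMSO, on log2(signal + 1)) of each member under 5 scalings between libraries, with standard errors as bars and filled points for an adjusted p below 0.05. CTSD is filled and above 0 under all 5, whereas no member below 0 is filled once mitochondrial and small RNA genes are removed.

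Listed genes of the cystatin and serpin families of protease inhibitors, not all of which act on the members, were mostly lower after SF153. Of 14 cystatin and serpin genes listed, 6 were tested, and 5 were called lower and none higher, with a median log2 difference of -0.94. Among all genes tested, 24.3% were called lower, and 13.8% once mitochondrial and small RNA genes were removed. CST3, the secreted cystatin C, had a signal of 111, 116, 87.8 and 86.8 in DMSO and 33.9, 39.6, 13.1 and 15.5 in SF153, and its log2 difference was -2.07 ± 0.32 (adjusted p = 0.000852). CSTA, the cytosolic stefin A, had a signal of 66.0, 61.6, 52.3 and 55.1 in DMSO and 18.7, 14.7, 12.8 and 10.00 in SF153, with a log2 difference of -2.01 ± 0.16 (adjusted p = 3.98e-05). Both were well separated between the groups. CSTB, stefin B, fell from 93.4 ± 16.2 to 53.3 ± 17.7 (log2 difference -0.84 ± 0.22, adjusted p = 0.0147). SERPINB1, which inhibits granule serine proteases, fell from 13.1 ± 2.34 to 5.77 ± 0.362 (log2 difference -1.04 ± 0.14, adjusted p = 0.000324), and SERPINB8 fell by 0.61 on the log2 scale (adjusted p = 0.000785). CST7, cystatin F, which restrains cathepsin C in immune cells, was at 17.2 ± 2.92 and 16.6 ± 4.88 (adjusted p = 0.808). With mitochondrial and small RNA genes removed, CSTA, CST3 and SERPINB1 were still called lower, at -1.69, -1.74 and -0.74, whereas CSTB (-0.50, adjusted p = 0.0538) and SERPINB8 (-0.27, adjusted p = 0.0501) were not.

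**Figure D4:**
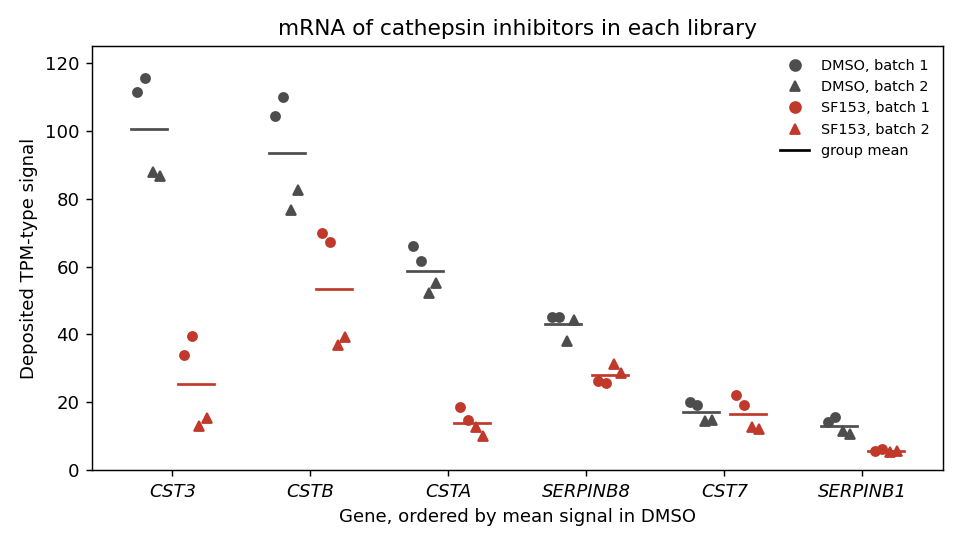
Signal (linear axis) of the 6 tested inhibitor genes in each library, with grey for DMSO, red for SF153, circles for batch 1, triangles for batch 2 and lines at the group means. CSTA, CSTB, CST3, SERPINB1 and SERPINB8 lie lower in all 4 SF153 libraries, and the groups overlap for CST7.

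The level of CTSB relative to 2 of its inhibitors was higher in SF153. CTSB over CST3 was 1.08 ± 0.0908 in DMSO and 3.97 ± 1.61 in SF153, and CTSB over CSTB was 1.17 ± 0.133 and 1.69 ± 0.338, both without overlap and neither tested. The batch 2 libraries of SF153 held the highest ratios in both cases. These are ratios of RNA, and neither protein nor activity was measured.

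Partners of CTSA and CTSD gave a mixed picture. Of the 4 listed, GLB1 and GALNS, a sulfatase of the same complex, were called higher and none lower. Among all genes tested, 13.0% were called higher. GLB1 went from 34.3 ± 4.87 to 44.9 ± 6.28 (log2 difference 0.38 ± 0.12, adjusted p = 0.0393) and GALNS from 48.5 ± 5.19 to 65.1 ± 5.58 (0.42 ± 0.10, adjusted p = 0.00696). NEU1, at 19.3 ± 1.91 and 19.2 ± 4.14, was not called (adjusted p = 0.901). PSAP, which encodes prosaposin, a partner of the CTSD precursor, was at 121.3 ± 10.7 and 121.7 ± 27.3 (adjusted p = 0.934). CTSD over PSAP went from 1.36 ± 0.123 to 1.98 ± 0.0934 without overlap, whereas CTSA over NEU1 (2.77 ± 0.359 and 3.16 ± 0.328) and CTSA over GLB1 (1.56 ± 0.178 and 1.33 ± 0.0733) overlapped. The count of 2 was 1 when DMSO 1.2, DMSO 2.1, DMSO 2.2, SF153 1.1 or SF153 1.2 was left out, and 0 in batch 2 alone.

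Other lysosomal proteins were mixed. Of all genes tested, 13.0% were called higher and 24.3% lower, and in the rescaled fit 35.0% and 13.8%. The counts below were not tested against these shares. Of 6 further lysosomal peptidases tested, 2 were called lower. These were the carboxypeptidase PRCP at -1.09 (adjusted p = 0.00102) and GGH, which trims folate polyglutamates, at -1.43 (adjusted p = 0.000901). None of the 6 was called higher, with TPP1 at 0.03, DPP7 at 0.19, SCPEP1 at 0.25 and CPQ at 0.23. All 4 of the latter were called higher once mitochondrial and small RNA genes were removed. Of 38 other hydrolases tested, 9 were called higher and 7 lower, with a median log2 difference of 0.04. The count of 7 was 4 without DMSO 2.1 or without SF153 2.1, and the calls were 18 higher and 1 lower in the rescaled fit. The largest called were the acid ceramidase ASAH1 (1.12) and the sulfatase ARSG (1.01) upwards, and the thioesterase PPT1 (-1.15) and the glycoasparaginase AGA (-1.01) downwards. Of 19 genes for mannose 6-phosphate tagging, sortilin and adaptor proteins, 3 were called higher and 2 lower, with a median of -0.05, and 10 higher and 1 lower in the rescaled fit. CLN8, which helps export lysosomal enzymes from the endoplasmic reticulum, was higher by 0.73 (adjusted p = 0.000457), the adaptors GGA1 by 0.41 (adjusted p = 0.00239) and GGA2 by 0.30 (adjusted p = 0.0190). The adaptor subunits AP1S1 (-0.71, adjusted p = 0.00226) and AP1M1 (-0.48, adjusted p = 0.0317) were lower, and this count of 2 was 1 without DMSO 1.1, DMSO 2.1, SF153 1.1 or SF153 2.1. The receptors M6PR (-0.17, adjusted p = 0.476) and IGF2R (-0.09, adjusted p = 0.331), which carry cathepsin precursors, were not called.

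A further list joined the invariant chain and endosomal Toll-like receptors, which cathepsins cut, with the MHC class II genes and their helpers, which serve the same pathway. Of 14 tested genes of this list, 10 were called lower and none higher, 7 of the 10 being MHC class II chains. The median log2 difference was -0.88. In the rescaled fit 9 were called lower and 2 higher. Among all genes tested, 24.3% were called lower as deposited and 13.8% in the rescaled fit. CD74, the invariant chain cut by CTSS, fell from 674 ± 48.4 to 259.7 ± 110.4 (log2 difference -1.47, adjusted p = 0.00181). HLA-DRA fell from 191 ± 26.8 to 55.3 ± 24.8 (-1.88, adjusted p = 0.000814), HLA-DPA1 from 34.7 ± 4.44 to 14.5 ± 3.82 (-1.23, adjusted p = 0.000582) and TLR9, a receptor for DNA that cathepsins cleave, from 7.27 ± 0.758 to 2.76 ± 0.833 (-1.16, adjusted p = 0.000860). Among the 3 lymphoid markers tested, CD79A (-1.998) and CD79B (-1.10) were called lower in the same libraries, and PAX5, at 1.66 ± 0.904 and 2.62 ± 0.536, was not called (log2 difference 0.48, adjusted p = 0.147). The part of any such cells was not tested. Of the 4 tested serine protease genes whose precursors CTSC activates, 3 were called lower. CTSG fell from 76.9 ± 11.7 to 20.0 ± 7.17 (-1.95, adjusted p = 0.000182), PRTN3 fell by 1.23 on the log2 scale (adjusted p = 0.00398) and PRSS57 fell by 1.62 (adjusted p = 0.00302). AZU1 was at 270.2 ± 28.98 and 292 ± 13.8 (adjusted p = 0.317). In the rescaled fit AZU1 was called higher (log2 difference 0.46, adjusted p = 0.00194), and the other 3 were still called lower. The log2 difference of CTSC itself was -0.47.

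Of 7 further cathepsin genes and relatives listed, 4 had a row, and CTSF, CTSV and CTSE had none. Those with a row were low apart from CTSG. CTSK, the collagen-degrading cathepsin of osteoclasts, was at 6.63 ± 0.272 in DMSO and 8.50 ± 1.06 in SF153, separate between the groups but not called (adjusted p = 0.0682). With mitochondrial and small RNA genes removed, CTSK was called higher (log2 difference 0.61, adjusted p = 0.00406). NAPSA, an aspartic protease related to CTSD, rose from 1.84 ± 0.601 to 3.59 ± 1.05 (log2 difference 0.69, adjusted p = 0.0312), a call lost without DMSO 1.1, DMSO 1.2, DMSO 2.2 or SF153 2.1. CTSW, a cathepsin of cytotoxic lymphocytes, was below the filter, at 0.903 ± 0.456 and 0.270 ± 0.141. The CTSL-related pseudogene CTSLP3 fell from 9.71 ± 2.13 to 1.32 ± 1.40 (log2 difference -2.35 ± 0.34, adjusted p = 0.000633), and it was not called in batch 2 alone. Its copies resemble one another and CTSL, so reads could be split between them, and its value is uncertain and says nothing of CTSL.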

How the data were processed

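Gene signal was analysed for 8 RNA-seq libraries of NKM-1 cells, 4 with DMSO and 4 with SF153, read through columns matched to the labels. The deposited signal is called both CPM and TPM by the authors and was taken to be adjusted for gene length as TPM is. Its sums differ between libraries, so it is not plain TPM, and no depth or counting interval can be given. Per the submitters' processing notes, the tools were CASAVA 1.8.2, STAR, Salmon and edgeR and the build GRCh38, with no role stated. Strand was kept by dUTP marking, per the labels' protocols. From the signal, log2(signal + 1) was computed for the 15542 genes with a mean of at least 1 and fitted with limma 3.58.1 in R 4.3.3, with a variance trend and no batch term. Benjamini-Hochberg adjustment ran over all genes tested, and adjusted p below 0.05 was called. The script was tested on simulated data. Differences on this scale understate changes of low genes.

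Members were taken by gene symbol and no measured value entered the rule, but the members and gene lists were chosen with earlier results of these data known. Named were all members, every tested gene of pathway lists with at most 10 of them, up to 4 called genes with the largest absolute log2 difference of longer pathway lists, and NEU1, GLB1, PSAP, M6PR, IGF2R, CSTB and CST3. GGA2 and the marker genes were named outside this rule, after their values were seen. Positions came from GENCODE 29 (17235 genes matched) and promoters from RefSeq, GRCh38.p14. The labels' batch number pairs the samples, yet across genes, which are not independent replicates, deviations of same-batch libraries of different treatment correlated only between -0.00 and 0.06 (Pearson r). Alternatives covered the pseudocount, the filter, 4 scalings, the variance trend, batch as a replicate block, averaged libraries, single batches and leaving out each library.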

Additional observations from a re-analysis of the deposited data

Results flagged for a closer look

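CTSO in DMSO is the single result singled out by Dixon's test for an outlying library, run on each of the 8 members in each treatment (16 groups of 4 libraries). In DMSO 1.2 its signal was 4.25, against 2.98, 3.18 and 2.996 in the other DMSO libraries, and the gap to the nearest of these was 0.839 of the whole range, above the test's 95% critical value for 4 values. Chance alone singles out about 1 in 20 such groups. Without DMSO 1.2 the log2 difference of CTSO was -0.54 (limma, adjusted p = 0.0941) in place of -0.63.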

How the results depend on the processing

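With batch as a replicate block, the paired fit called 1 member higher and 5 lower, as without it, and it changed no call of a member. The pseudocount, the filter on low signal and the variance trend left the number of members higher at 1 and the number lower between 4 and 5. The number higher was 2 under quantile normalization, without mitochondrial and small RNA genes and with the length and signal trend removed, and 0 with libraries averaged by treatment and batch and in batch 2 alone. The number lower was 3 under quantile normalization, 0 without mitochondrial and small RNA genes, 2 with the length and signal trend removed, 2 with libraries averaged and 2 in batch 1 alone. Leaving out 1 library at a time gave between 2 and 5 members lower and 1 higher each time. The sign turned for CTSB without mitochondrial and small RNA genes (0.0038). It also turned for CTSH, at 0.0650 under median-of-ratios scaling, 0.196 under quantile normalization, 0.318 without mitochondrial and small RNA genes, 0.249 with the trend removed, 0.125 in batch 1 alone and between -0.1263 and 0.0716 with 1 library left out. The cause was not tested, except that averaging and single batches leave fewer samples. The interaction with batch was called for 0 members under all 4 scalings run, with 1 member, CTSD, at an unadjusted p below 0.05 in limma. Read depth is unknown, so what it limits cannot be stated.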
